A study of Xenopus laevis with 18 samples.

Results

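Of 31357 gene models measured through frog development, 302 were low in most libraries of the egg and the cleaving embryo, had their onset at 1 TPM at stage 20 or stage 23 and kept a mean level in the tailbud of at least 25% of their maximum. These late-onset models were picked by their levels alone. The median of the 5 libraries from stage 0 to stage 7 had to be under 0.5 TPM, the highest level in any library had to lie from 10 to under 100 TPM, and the mean of stages 23, 26, 30 and 33 had to reach 25% of that highest level. Onset was scored from stage 8 on, as the earliest stage with at least 1 TPM that was followed by a stage with at least 1 TPM. The early, maximum and tailbud limits were met by 1675 models, of which 150 had their onset at stage 20 and 152 at stage 23.

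The samples were whole Xenopus laevis (African clawed frog) embryos of the J strain, an inbred line, raised in dilute MMR, a frog saline, with gentamycin and snap-frozen; no treatment or genotype differed between them. Poly(A)+ RNA was sequenced in 18 libraries, 1 per stage of the Nieuwkoop-Faber scale, by which Xenopus embryos are staged; how many embryos went into a library is not stated. The libraries form an early period (stages 0, 2, 6, 6.5 and 7), a blastula (8, 8.5 and 9), a gastrula (10 and 12), a neurula (14, 16, 18 and 20) and a tailbud period (23, 26, 30 and 33). Stages of a period are successive time points and not replicates. Values are TPM, the share of all transcripts in a library scaled to a fixed total, which keeps no sequencing depth, so the depth is unknown and no counting interval is given.

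At stage 20 the neural folds of the Xenopus embryo have met and the neural tube is closed or closing. In the tailbud that follows, the axis lengthens, muscle of the somites begins to contract, and heart, eye, kidney and blood differentiate, each switching on its own set of structural and enzyme genes. Genes of this kind are typically silent in the egg and come on once their cell type forms. The RNA came from whole embryos, so the number of cells of a type and the amount of RNA per cell cannot be told apart. The deposited table holds no gene symbols for its identifiers, and a search of the RefSeq gene table found 0 of them, so no function is given to any model and no cell type marker could be read.

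Because the levels themselves chose the models, the course up to and across the onset is a description and was given no weight as a result. The limits cut through a continuum. The highest early median inside was 0.48 TPM and the lowest outside was 0.5 TPM. The lowest maximum inside was 10.01 TPM and the highest outside was 9.97 TPM, and 1139 further models with the same onset failed on that limit alone. At the upper end the maximum was 98.66 TPM inside and 102.13 TPM outside, with 36 models failing only there. The tailbud mean was 26.7% of the maximum for the last model inside and 22.7% for the first outside. Stage 20 stood at 1 TPM in the lowest model counted as onset at stage 20 and at 0.99 TPM in the highest counted as onset at stage 23.

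The count of 302 rested on single libraries by construction, since each stage has 1. Without stage 18 the models with onset at stage 20 numbered 250, without stage 20 those with onset at stage 23 numbered 292, and without stage 23 the rule found 148 models in all. No onset can be scored at a stage left out, and its models can then be scored at the next one, so these shifts are in part set by the rule. Scaling the libraries to their spike-in RNAs, synthetic RNAs added to each sample, gave 850 models, 213 of them shared with the 302. The spike-ins' share of all TPM was 11.2% in the stage 0 library and 1.31% in the last one. With median-of-ratios scaling there were 340 models, 269 of them shared.

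**Figure D1:**
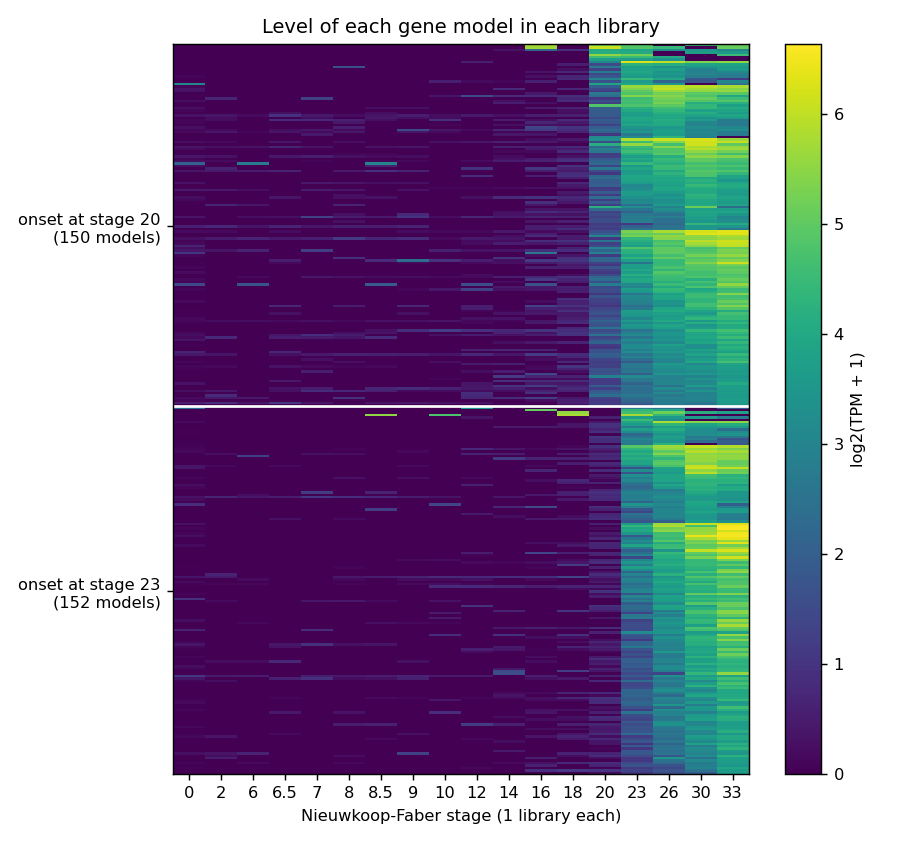
Level of each of the 302 models (rows) in each of 18 libraries (columns, by stage) as log2(TPM + 1), with 150 models with onset at stage 20 above the white line and 152 with onset at stage 23 below it, sorted by the stage of their highest level. Most rows are dark up to stage 18; some rows with onset at stage 20 brighten at stage 20 and nearly all others at stage 23, and a few rows go dark again between bright libraries.

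In TPM as deposited, the median over the models with onset at stage 20 stepped up by stage 23 and then rose slowly, while single models went on changing. Their median was 0 TPM in each library up to stage 14, and 0.17, 0.4 and 2.25 TPM at stages 16, 18 and 20. At stages 23, 26, 30 and 33 it was 11.46, 13.54, 15.0 and 15.98 TPM. The medians thus rose most between stages 20 and 23 and by little in each later step. For onset at stage 23 the median climbed through the whole tailbud. It was 0 TPM up to stage 18 and 0.35 TPM at stage 20, and at stages 23, 26, 30 and 33 it was 3.81, 9.18, 14.9 and 19.1 TPM. The later set was therefore the lower at stage 23, which the onset rule favours, and the higher at stage 33. The interquartile ranges at stage 33 overlapped, however (11.6 to 29.2 TPM for onset at stage 20, 12.2 to 34.1 for onset at stage 23). Both sets had the same limits on the maximum, and their median maxima were close, at 20.2 and 20.3 TPM.

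**Figure D2:**
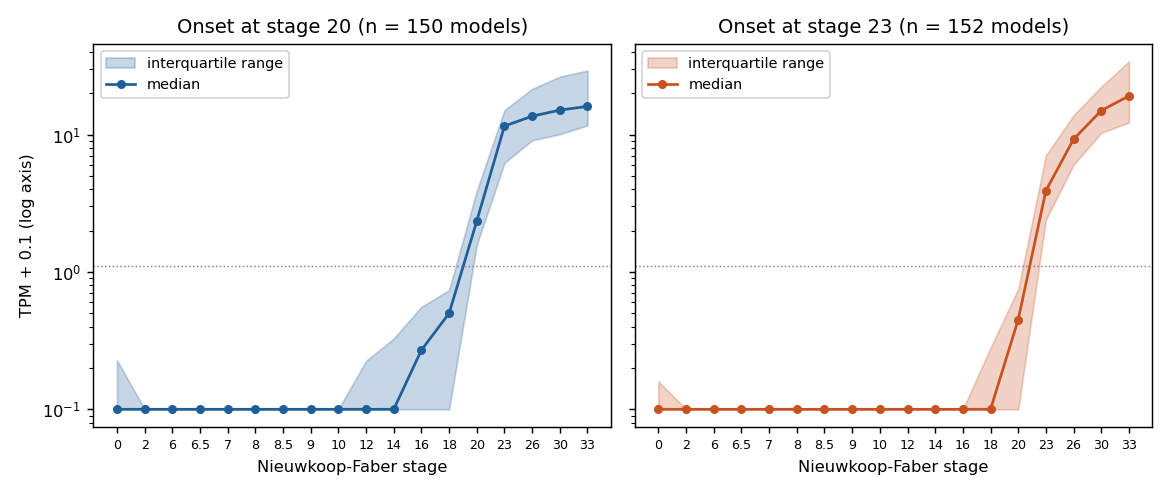
Median level (line and points) and interquartile range (band) over the models with onset at stage 20 (left, n = 150) and at stage 23 (right, n = 152), as TPM + 0.1 on a log axis against stage; the dotted line marks 1 TPM. In TPM as deposited, the left median flattens after 11.46 TPM at stage 23, while the right one goes on from 3.81 TPM at stage 23 to 19.1 at stage 33.

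Set against its own highest level, the median model with onset at stage 20 was at 12.0%, 48.3%, 65.8%, 80.4% and 98.3% of it at stages 20, 23, 26, 30 and 33. For onset at stage 23 the medians were 1.19%, 18.7%, 44.4%, 71.6% and 100% at these stages. Counted from stage 8 on, 50% of the highest level was first reached by 60, 51 and 26 of the 150 models with onset at stage 20 at stages 23, 26 and 30. Of the 152 with onset at stage 23, 14, 51, 59 and 24 first reached it at stages 23, 26, 30 and 33. In TPM as deposited, the stage at which 50% of the maximum was first reached thus varied among models that share an onset. Each stage is 1 library, so these counts do not separate measurement error from differences between models.

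A representative model for onset at stage 20, the nearest to the median course, was XeXenL6RMv10006883m. It held 0.03 TPM in the stage 0 library and 0 in the libraries of stages 2 to 10. Its levels at stages 12, 14, 16, 18 and 20 were 0.08, 0.09, 0.27, 0.85 and 1.99 TPM, and those at stages 23, 26, 30 and 33 were 12.08, 16.01, 13.22 and 16.07 TPM. It crept up through the neurula, jumped between stages 20 and 23 and then stayed level. Its counterpart for onset at stage 23, XeXenL6RMv10026095m, held 0.06 TPM in the stage 0 library and 0 in those of stages 2 to 16. Its levels at stages 18 and 20 were 0.07 and 0.06 TPM, and those at stages 23, 26, 30 and 33 were 3.57, 10.89, 16.44 and 15.52 TPM. It had no creep before its onset and was still climbing at stage 30.

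The most abundant models with onset at stage 20 differed from each other in the tailbud. XeXenL6RMv10033786m (onset at stage 20) had the highest tailbud mean, 63.1 ± 12.4 TPM (SD over stages, n = 4). It was listed at 0 up to stage 14 and held 0.19, 0.36 and 9.1 TPM at stages 16, 18 and 20, then 58.03, 69.77, 76.25 and 48.45 TPM over the tailbud stages in order. It was nearly full at stage 23 and lower again at the last stage. XeXenL6RMv10031560m (onset at stage 20), the next by tailbud mean, moved between 0 and 0.38 TPM up to stage 18, reached 2.08 TPM at stage 20 and held 38.61, 55, 73.16 and 79.89 TPM over the tailbud stages. Its level was higher in each library from stage 20 on than in the one before.

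For onset at stage 23 the most abundant was XeXenL6RMv10027298m, with 51.8 ± 45.4 TPM over the 4 tailbud stages. Up to stage 18 it was above 0 in the stage 0 library alone (0.19 TPM). It held 0.2 TPM at stage 20 and 2.58, 24.1, 86.42 and 94.07 TPM over the tailbud stages. XeXenL6RMv10044427m, with 51.2 ± 29.1 TPM, was likewise above 0 up to stage 18 in the stage 0 library alone (0.22 TPM). It held 0.47 TPM at stage 20 and 10.86, 50.02, 67.43 and 76.62 TPM over the tailbud stages. In these models the SD over the tailbud stages is mostly the climb itself, so it is no measure of error.

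**Figure D3:**
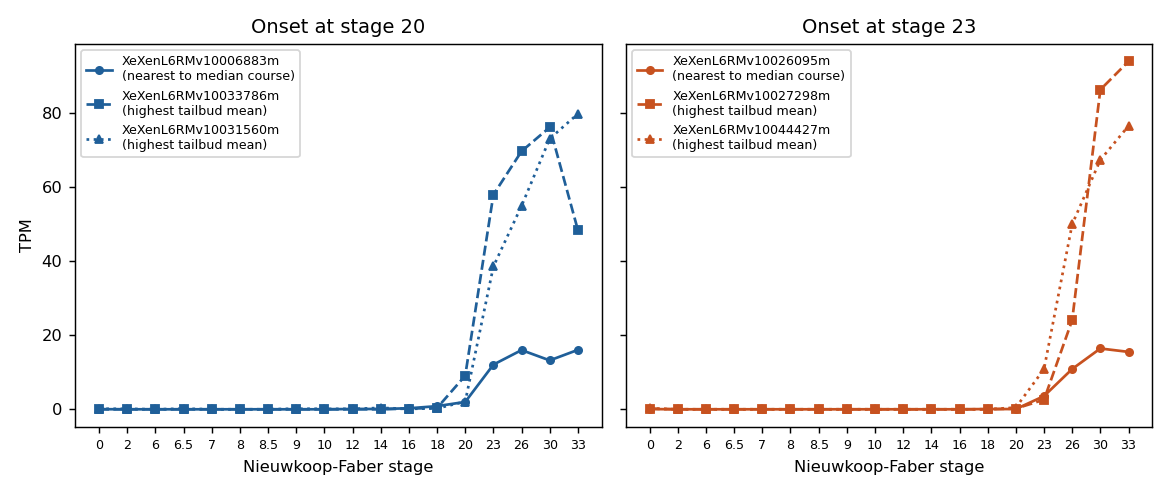
TPM of the 6 models named by rule against stage, with onset at stage 20 on the left and at stage 23 on the right; each point is 1 library. At stage 23 the more abundant left-hand models are at 58.03 and 38.61 TPM, and the right-hand ones at 2.58 and 10.86 TPM.

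Measurement error was read from the spike-ins, as the SD of each one's share of the spike-in total over the libraries from stage 20 to stage 33. The median SD was 0.39 on the log2 scale (range 0.16 to 0.77) for 19 spike-ins with a mean of 10 to under 100 TPM, and 0.55 (range 0.27 to 0.997) for 16 with a mean of 1 to under 10 TPM. This spread holds library preparation and sequencing and no difference between embryos. Steps of the models were counted past 2-fold on TPM + 1, with no test, since each side is 1 library. Those of the spike-ins were counted on shares of the spike-in total, with nothing added. Only spike-ins with a mean of 10 to under 100 TPM were counted, and not the lower ones, which spread more. At stage 20 the median model was below 10 TPM, at 2.25 TPM for onset at stage 20 and 0.35 TPM for onset at stage 23.

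From stage 18 to stage 20, a step the rule used, 108 of the 150 models with onset at stage 20 and 0 of the 152 with onset at stage 23 were more than 2-fold higher (all 23880 tested models: 7.17%), and 0 and 3 more than 2-fold lower (1.52%); 1 of the 19 spike-ins was more than 2-fold higher, with a median over the 19 of 0.29 on the log2 scale. From stage 20 to stage 23, which the rule used as well, 116 of the 150 models with onset at stage 20 and 135 of the 152 with onset at stage 23 were more than 2-fold higher, against 7.16% of all tested models and 0 of the 19 spike-ins, and 1 and 0 were more than 2-fold lower (3.58%). The median difference was 1.53 and 1.87 on the log2(TPM + 1) scale. Each count of 0 models in these steps was fixed by the rule, so the shares of all models are no comparison for it. Models with onset at stage 23 were under 1 TPM at stage 20, so on TPM + 1 they could not rise more than 2-fold into it. Models of either set crossed 1 TPM from below at their onset, so they could not be lower there than 1 stage before. The rule also bears on the later steps, since the onset, the maximum and the tailbud mean draw on these libraries, and models with onset at stage 23 had to be low before it and reach 10 TPM afterwards. From stage 23 to stage 26, 15 of 150 and 74 of 152 were more than 2-fold higher (all tested models: 2.86%), and 4 and 2 were more than 2-fold lower (1.4%). None of the 19 spike-ins passed 2-fold in that step. The median model with onset at stage 23 entered it at 3.81 TPM, below the level of these spike-ins. From stage 26 to stage 30 the numbers were 19 and 47 higher (3.38%) and 8 and 9 lower (4.92%), and 5 of the 19 spike-ins were lower. From stage 30 to stage 33 they were 7 and 25 higher (2.52%) and 3 and 2 lower (1.57%), and 4 spike-ins were higher. In both steps some spike-ins thus passed 2-fold. Into stage 30 the spike-ins moved down (median over the 19 of -0.73 on the log2 scale, 0 more than 2-fold higher). In both onset sets more models rose than fell past 2-fold, while over all tested models more fell than rose. Out of stage 30 the spike-ins moved up (median 0.48), and in both onset sets more models rose than fell past 2-fold. Spike-in values are shares of the spike-in total, so their direction cannot be set against that of the models. Neither step is read as clear of the spike-in spread. What part the stage 30 library has in these steps was not tested.

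The climb from stage 23 to stage 33 can be read without the library of stage 30. On the log2(TPM + 1) scale the median difference between stages 33 and 23 was 0.81 for onset at stage 20 (interquartile range 0.02 to 1.31) and 2.09 for onset at stage 23 (1.32 to 2.80), where all tested models had a median of -0.12. Stage 33 was the higher in 113 of 150 and 140 of 152 models. The medians were above 0 for each set under all 4 other scalings. With spike-in scaling the medians were 2.07 and 3.38, but the median of all models then moved to 0.97; with median-of-ratios scaling they were 1.01 and 2.30 beside 0.02. A rule that asks for a low level before stage 23 and at least 10 TPM later favours a higher stage 33, most of all for onset at stage 23, so these counts support nothing about the models as a set.

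**Figure D4:**
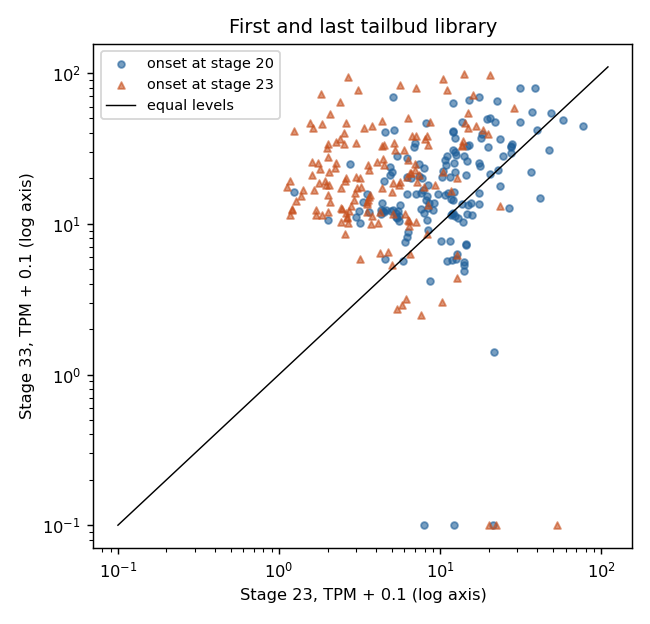
Level of each model at stage 33 against its level at stage 23, as TPM + 0.1 on log axes, with circles for onset at stage 20, triangles for onset at stage 23 and a line of equal levels. Of the models with onset at stage 20, 113 of 150 lie above the line and some far below it; of those with onset at stage 23, 140 of 152 lie above it, and the points on the lower edge were listed at 0 at stage 33.

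A straight trend over the 4 tailbud libraries was fitted to all models with limma on log2(TPM + 1). Of 23880 tested models 0 were called (rising 0%, falling 0%) at an adjusted p under 0.05, with 6681 at an unadjusted p under 0.05, and accordingly 0 of the 302. The fit to 4 libraries leaves 2 residual degrees of freedom, so a count of 0 does not show steady levels. The median slope per stage step was 0.28 for onset at stage 20 and 0.68 for onset at stage 23, beside -0.05 over all tested models, and the slope was above 0 in 114 of 150 and 139 of 152. At an unadjusted limma p under 0.05, 180 of the 302 had a positive and 16 a negative slope. Of all 23880 tested models, 6681 passed that level with a slope of either sign, and their split by sign is not given. The steepest positive slopes were those of XeXenL6RMv10027298m, described above, and of XeXenL6RMv10025353m (onset at stage 23), which was listed at 0 up to stage 20 and held 1.71, 16.24, 37.84 and 72.81 TPM over the tailbud stages. Its slope was 1.55 ± 0.22 (SE) per stage step (limma adjusted p = 0.0819). The call depended on the filter: with models of at least 5 TPM in 2 libraries, 36 of 300 members rose (all models: 0.88%) and 0 fell (0.664%), 11 of the 36 with onset at stage 20 and 25 at stage 23. The rule used these 4 libraries and favours a rise over them. The slopes and counts of the members therefore describe them and support nothing about them as a set.

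After their onset most models did not peak early, which the rule favours. It asks for a low level before the onset, a maximum of at least 10 TPM and a lasting tailbud mean. The counts of highest stages therefore describe the models and support nothing about them as a set. Stage 33, the last sampled, held the highest level of 177 of the 302. Stages 30, 26, 23 and 20 held that of 70, 32, 12 and 6 models, and 5 were highest before stage 20. By onset, 73 of 150 (48.7%) and 104 of 152 (68.4%) were highest at stage 33. Of these models no later level was measured. The number highest at stage 33 was 268 of the 302 under spike-in scaling and 181 under median-of-ratios scaling. From stage 20 to stage 33 each library exceeded the one before in 47 models with onset at stage 20 and 92 with onset at stage 23. At the other end, 20 and 12 models had come down to 50% or less of their maximum by stage 33.

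Models on either side in onset, chosen with the same early, maximum and tailbud limits, framed this pattern. The 213 models with onset at stage 16 or 18 had medians of 12.57, 14.12, 12.78 and 12.43 TPM over the tailbud stages. Stage 33 was highest in 28.6% of them, and 25.8% had fallen to 50% or less of their maximum by then, against 13.3% for onset at stage 20, 7.89% for onset at stage 23 and 10% for onset at stage 26 or 30. The 100 models with onset at stage 26 or 30 had medians of 0, 1.19, 7.76 and 15.5 TPM, and 82% were highest at stage 33. In TPM as deposited the share highest at the last stage was thus ordered by onset. Under spike-in scaling, stage 33 was highest in 129 of 150 models with onset at stage 20 and 139 of 152 with onset at stage 23. The lists on either side were not rescaled. Later onset leaves fewer stages in which to peak, and the difference between these lists was not tested.

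Many models were readable at a trace level before they crossed 1 TPM. Of the 150 with onset at stage 20, 54, 83 and 104 were above 0 at stages 14, 16 and 18. Of the 152 with onset at stage 23, 26, 36, 50 and 107 were above 0 at stages 14, 16, 18 and 20. Among all 31357 models, 66.9%, 70.0%, 70.3% and 79.3% were above 0 at these 4 stages. The number above 0 grew stage by stage ahead of the onset in each set, and for onset at stage 23 it grew most at stage 20, where the share over the whole table did as well. Only 17 and 27 models were listed at 0 in every library before their onset. In 48 of the 302 a library before the onset held 1 TPM or more, in 39 of them 1 library only, and for 16 models with onset at stage 20 the stage 16 library did.

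Stage 20 is also the first column after stage 0 whose name ends in rr, and all later columns end so too; the labels give no meaning for it. Models listed at 0 in the whole table numbered 9322 at stage 18 and 6491 at stage 20, and the 5th percentile of all nonzero values stood at 0.26 TPM and 0.15 TPM. For onset at stage 20, stage and column type cannot be told apart. Stage 0, the one early library with the suffix, had 117 of the 302 models above 0, against 26 to 40 at stages 2 to 7, while the share of the whole table above 0 was 65.0% at stage 0 and 57.7% to 61.5% at stages 2 to 7. At 1 TPM or more, stage 0 had 6 of the 302 and stages 2 to 7 had 0 to 5; the limit on the early median keeps these numbers low. For onset at stage 23 the stages before and at the onset, 20 and 23, both carry the suffix; their levels were fixed by the rule.

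**Figure D5:**
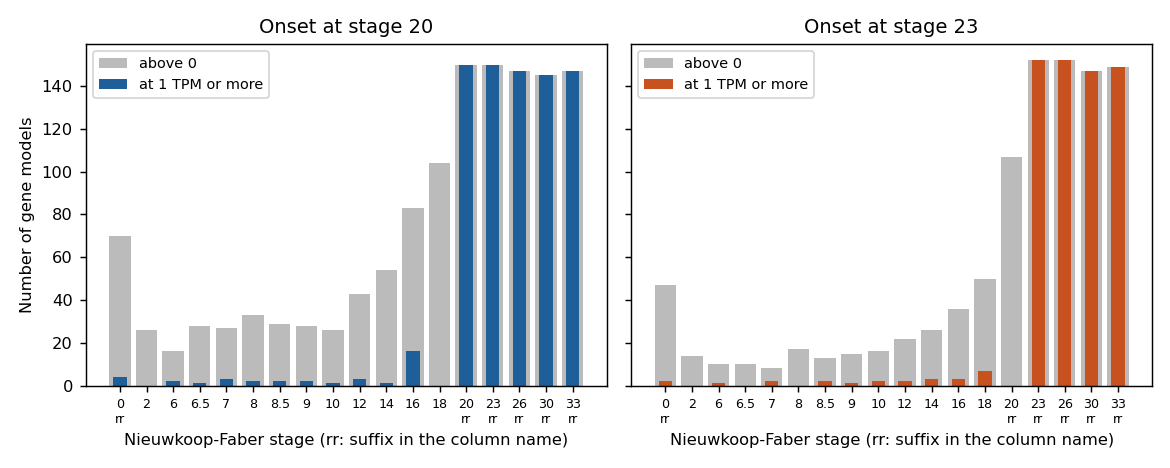
Number of models above 0 (grey) and at 1 TPM or more (coloured) in each library, for onset at stage 20 (left) and stage 23 (right); columns whose name carries the suffix rr are marked. Stage 0 stands out in grey, with 70 and 47 models above 0, but not in colour, with 4 and 2.

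The contrast of the tailbud with the neurula, fitted with limma to all 18 libraries, used libraries that chose the models and is given as a description. Of the 302, 292 were called higher in the tailbud and 0 lower, against 21.9% and 7.55% of all 23880 tested models. The median difference was 3.21 for onset at stage 20 and 3.14 for onset at stage 23 on the log2(TPM + 1) scale, beside 0.16 over all tested models. With the libraries of suffix rr alone, which leaves stage 20 as the only neurula library, it was 2.02 and 3.07. In that fit 1 of the 302 was called higher and 0 lower, but over all 23880 tested models only 1 was called higher (0.00419%) and 10 lower (0.0419%), so the count says nothing about the members. In the fit to all 18 libraries, the 10 models not called were all uneven between libraries. The rest of the 14 uneven models were called. Levels of 0 in the tailbud or high levels before the onset can themselves shrink or blur this contrast, so the match is in part built in.

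Uneven here means at 10 TPM or more in a library before the onset or listed at 0 in a tailbud library, a description added after the values were seen, and 14 models met it. Among them XeXenL6RMv10036107m (onset at stage 23) held 45.48, 26.02, 54.86, 53.04 and 20.03 TPM at stages 8.5, 10, 18, 23 and 26, and no value above 0 at any other stage. XeXenL6RMv10047901m (onset at stage 20) held 23.32, 21.18 and 15.59 TPM at stages 20, 23 and 26 and was listed at 0 before and after them. These were the models with the steepest negative slopes over the tailbud, -2.17 ± 0.42 (SE) and -1.75 ± 0.41 per stage step (limma adjusted p = 0.0915 and 0.110). A 0 in such a table can be a failed estimate, and reads of near-identical models can be hard to assign. Neither was tested for these models. Without the 14, 142 models with onset at stage 20 and 146 with onset at stage 23 remained. The number highest at stage 33 stayed at 177, now of 288, because none of the 14 was highest there.

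The identifiers carry a number that the sources used here do not explain. For 203 of the 302 models the model with the next number was in the table, and in 10 cases (4.93%) it was one of the 302 as well; over all 19476 models with a next number the share was 0.965%. The onset was at the same stage in 8 of the 10 pairs. The 302 split into 150 with onset at stage 20 and 152 at stage 23, so many pairs would match by that split alone. This count was not tested. In the pair with the most similar courses, named after the values were seen, XeXenL6RMv10006194m held 1.11, 12.28, 21.56, 29.2 and 37.12 TPM at stages 20, 23, 26, 30 and 33. XeXenL6RMv10006195m held 1.2, 13.52, 24.17, 37.09 and 46.98 TPM in the same libraries. The rule already makes any of the 302 alike in course, so likeness within a pair is a description, and whether such pairs are neighbours or copies was not tested.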

How the data were processed

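The authors deposited 1 table of TPM for 31357 gene models and 88 spike-in entries in 18 libraries. The submitters' processing notes list CASAVA 1.8.2, Trimmomatic, Bowtie and RSEM without saying what each did; no genome build is given in the sources used here. From stage 6 on the decimals point to spike-in entries divided by 0.5 (22 entries), 1 (21), 0.67 (22) or 4 (22) after the TPM was made. This division is an inference from the values. It was undone for spike-in scaling and for the spike-in shares, spreads and steps given above, which thus rest on this inference. All columns matched a library by stage. The members and lists were chosen with earlier results of these data known.

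limma 3.58.1 (R 4.3.3) was run on log2 values with a pseudocount of 1 TPM, a trended prior variance and two-sided tests, Benjamini-Hochberg adjusted at 0.05 over 23880 models. These had 1 TPM or more in 2 or more libraries, and each of the 302 was among them. Differences on this scale understate changes of low models. P-values measure change against the spread over stages, which holds development. The code was tested on simulated data. Models were named by these rules: the nearest to the median course, the 2 highest tailbud means per onset stage, and the 2 largest positive and negative tailbud slopes.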

Additional observations from a re-analysis of the deposited data

Results flagged for a closer look

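A Dixon gap test was run on 32 groups of 4 or 5 libraries. They covered the numbers and medians of the 302 models and the models named. In 13 of the groups 1 library stood apart from the rest. The usual chance rate of about 1 in 20 groups does not hold here. Successive stages are not replicates, the rule sets some of the gaps, and where all other libraries are at 0 any trace is flagged. The stage 0 library had 117 of the 302 models above 0. It was also the only early library above 0 for XeXenL6RMv10006883m (0.03 TPM), XeXenL6RMv10026095m (0.06 TPM), XeXenL6RMv10027298m (0.19 TPM) and XeXenL6RMv10044427m (0.22 TPM). The stage 20 library stood apart from the other neurula libraries with 150 models at 1 TPM or more, which the onset rule sets, and with a median of 0.35 TPM for onset at stage 23. The stage 20 library did so too for XeXenL6RMv10033786m (9.1 TPM), XeXenL6RMv10031560m (2.08 TPM), XeXenL6RMv10027298m (0.2 TPM), XeXenL6RMv10044427m (0.47 TPM) and XeXenL6RMv10047901m (23.32 TPM). For XeXenL6RMv10033786m, XeXenL6RMv10031560m and XeXenL6RMv10047901m, with onset at stage 20, the onset rule favours such a gap. Stages 0 and 20 carry the column suffix rr, and its part in these gaps was not tested. XeXenL6RMv10036107m stood at 54.86 TPM at stage 18 and at 0 in the other neurula libraries.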

How the results depend on the processing

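The number of models by onset moved by more than 1.5 times under spike-in scaling (850 in all, 508 at stage 20 and 342 at stage 23) and with a maximum of 5 to under 200 TPM (618, 295 and 323). With an onset level of 0.5 or 2 TPM it was 241 or 390. Of the 302 models, 174 and 206 kept their onset stage under these levels. Under spike-in scaling 183 kept it and under quantile normalization 190. Under median-of-ratios scaling 266 kept it, and 297 after rescaling without models that switch between high levels and 0. Leaving out 1 library at a time gave 148 to 404 in all, 136 to 250 at stage 20 and 136 to 292 at stage 23. The number highest at stage 33 was 268 under spike-in scaling and 179 to 230 without another tailbud library. The contrast of tailbud and neurula called 287 to 296 of the 302 without 1 library, but 1 with the rr libraries alone, where 1 neurula library is assumed to vary like the others and only 1 of all 23880 tested models was called higher and 10 lower. The 6 models nearest to a median course or highest in tailbud mean were called under the other alternatives but not under that one (limma adjusted p from 0.116 to 0.247), and their difference stayed above 0 in all. The tailbud trend called 0 without any 1 library, 1 under spike-in scaling and 36 with a filter of 5 TPM, under which fewer models are tested. The cause of the shifts listed here was not tested. No paired analysis was possible because each stage has 1 library. The unknown depth limits levels near 1 TPM, where onset is read.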
